A study of Mus musculus with 8 samples.

Results

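The miR-146 family was followed through 8 small RNA libraries of mouse liver. It was taken as the 3 names miR-146a-5p, miR-146a-3p and miR-146b-5p of the 862 miRNA names listed in all. A name missing from a library's table was set to 0. The family was selected on earlier results of these libraries, among them the levels of miR-146a-5p in the AL and CR mitochondrial libraries. That comparison is therefore described and not tested for these names.

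All mice were male wild-type C57BL/6J, housed singly from 8 weeks of age. For 12 weeks they either ate ad libitum (AL) or were under caloric restriction (CR), where food was cut by 20% during week 1 and by 40% during the following 11 weeks. Whole-liver RNA of 3 samples was pooled in equal parts into a single library for each diet. Liver mitochondria, isolated by differential centrifugation as mitoplasts (mitochondria stripped of their outer membrane), gave 3 libraries for each diet. Nothing in the labels ties these replicates to separate animals, so their spread may be technical.

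MicroRNAs are short RNAs that guide Argonaute proteins to messenger RNAs, mainly through the seed, the bases near their 5′ end. miR-146a is induced by NF-kappaB downstream of Toll-like receptors and represses the adaptor kinase Irak1 and the ubiquitin ligase Traf6, so that it damps the signal that induces it. miR-146b is a paralogue from another chromosome with the same seed. In liver, miR-146a is known from Kupffer cells and other immune cells.

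The mature sequences show how close the paralogues are and how the arms differ. They are given 5′ to 3′ with the seed (bases 2 to 8) in capitals, as the tables and RefSeq both hold them.

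miR-146a-5p: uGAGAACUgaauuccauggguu
miR-146b-5p: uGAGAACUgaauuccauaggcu
miR-146a-3p: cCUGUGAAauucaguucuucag

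miR-146a-5p and miR-146b-5p, each 22 bases long, shared 20 of 22 positions. The first 17 bases were identical. Counted from the 5′ end, the differences from miR-146a-5p to miR-146b-5p were G18A and U21C. They were the only 2 names in the tables, and the only 2 mature mouse miRNAs in RefSeq's table, with the seed GAGAACU. The star arm miR-146a-3p, the strand of the hairpin that is mostly discarded, had a seed of its own that no other name in the tables shared. Every other name differed from miR-146a-5p at 10 or more positions, but a read cut off before base 18 cannot be told apart between the paralogues. The mismatches allowed in assigning reads are not given in the sources used here.

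The hairpins are shown because both arms of the first were measured, and the capitals mark their mature arms.

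Mir146 hairpin: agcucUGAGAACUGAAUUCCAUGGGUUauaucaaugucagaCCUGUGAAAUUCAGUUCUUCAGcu
Mir146b hairpin: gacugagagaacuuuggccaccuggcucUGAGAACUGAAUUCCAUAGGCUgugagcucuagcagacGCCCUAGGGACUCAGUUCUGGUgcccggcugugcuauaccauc

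The hairpin of miR-146a, annotated as Mir146, lies at chr11:43374397-43374461 on the minus strand (GRCm38.p6), with no other GENCODE M21 gene over it. The 5p arm is at chr11:43374435-43374456 and the 3p arm at chr11:43374399-43374420. The hairpin Mir146b lies at chr19:46342762-46342870 on the plus strand, within the protein-coding gene Mfsd13a on the same strand and outside its annotated exons. Its 5p arm is at chr19:46342790-46342811, and its 3p arm was not analysed here. These positions come from the reference and not from the authors' mm9 alignment.

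The libraries held 1070762 to 3242002 miRNA reads, and levels are given as RPM, reads scaled to a library total of 1000000 miRNA reads. RPM is a relative level: a name can rise in it when others fall. CR mitochondrial replicate 2 stood apart from the rest. miR-122, the main hepatocyte miRNA, took 25.2% of its reads against 38.0% to 58.1% in the other 5 mitochondrial libraries, and the pancreas miRNAs miR-375, miR-217, miR-216a and miR-216b together reached 98.9 RPM in it against 2.11 to 5.48 RPM in those 5. Main results are also given without it.

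miR-146a-5p was by far the most abundant of the 3 names in all 8 libraries. In AL mitochondria it stood at 7609, 10435 and 10739 RPM in replicates 1 to 3 (mean 9595 ± 1726 RPM, SD, n = 3). In CR mitochondria it stood at 2763, 3411 and 4626 RPM (mean 3599.9 ± 946 RPM, SD, n = 3). The whole-liver pools had 630.5 RPM under AL (95% exact Clopper-Pearson interval 599 to 663 RPM) and 389.9 RPM under CR (369 to 412 RPM). No library of one group overlapped another: the order ran from AL mitochondria through CR mitochondria and the AL pool to the CR pool, and the lowest mitochondrial library was 4.38 times the higher pool. Intervals of this kind cover counting error only.

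By rank, miR-146a-5p was the 59th name of the AL pool and the 67th of the CR pool. Among AL mitochondrial libraries it ranked 13th to 15th, and among those of CR 18th to 21st. In the AL pool its neighbours were miR-145a-5p (656 RPM) above and miR-23a-3p (621 RPM) below. In the CR pool they were miR-93-5p (427 RPM) and miR-423-3p (384 RPM). By mean RPM it stood in AL mitochondria between let-7g-5p (11976 RPM) and the endothelial miRNA miR-126a-3p (6906 RPM). In CR mitochondria it stood between miR-30c-5p (3677 RPM) and miR-30e-5p (3402 RPM).

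The paralogue miR-146b-5p spanned a narrower range. Its level was 229, 311 and 382 RPM in AL mitochondria (mean 307 ± 76.5 RPM, SD, n = 3) and 135, 272 and 265 RPM in CR mitochondria (mean 224 ± 77.3 RPM, SD, n = 3). In the pools it was 167 RPM under AL and 123 RPM under CR, from 406 and 399 reads. The AL and CR mitochondrial libraries overlapped, and CR mitochondrial replicate 1 lay below the AL pool.

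The star arm miR-146a-3p was barely detected. AL mitochondria gave 4, 5 and 0 reads of it and CR mitochondria 0, 2 and 1 reads, against 0 reads in the AL pool and 2 in the CR pool. That made 12 reads in mitochondria and 2 in the pools. A count of 0 allows a level of up to 1.23 RPM in the AL pool, 2.11 RPM in AL mitochondrial replicate 3 and 2.50 RPM in CR mitochondrial replicate 1, the level of 3 reads. At this depth no order of the groups can be read for it.

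**Figure D1:**
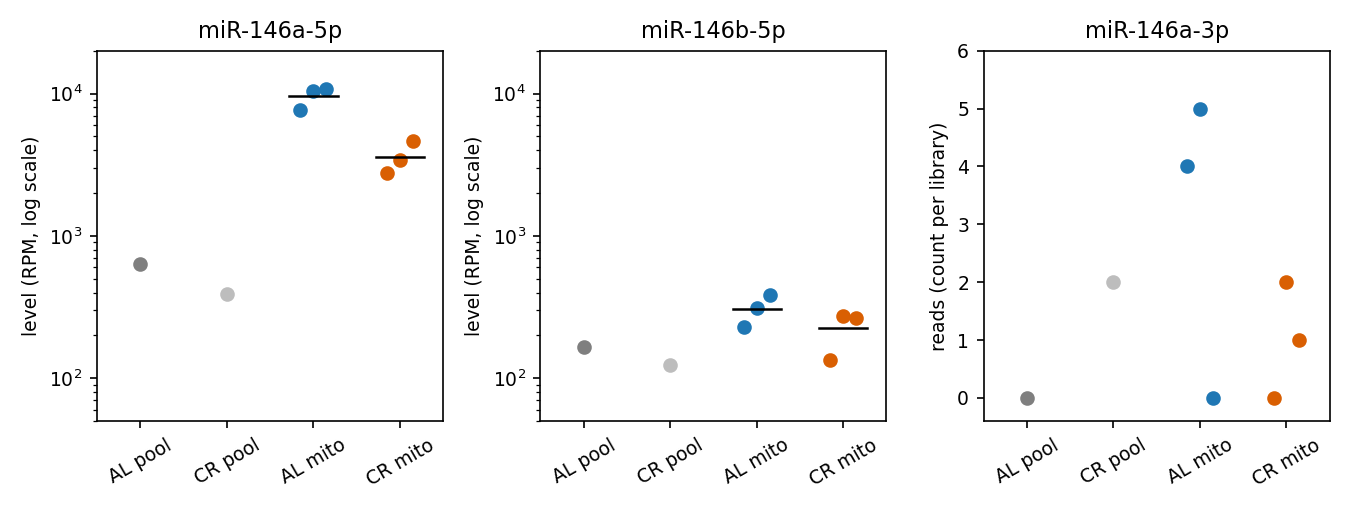
Level of miR-146a-5p and miR-146b-5p in RPM on a log axis, and reads of miR-146a-3p on a linear axis, in each of the 8 libraries; points are libraries in the order of their replicate numbers and black lines are means of 3. For miR-146a-5p all 6 mitochondrial libraries (2763 to 10739 RPM) lie above both pools (389.9 and 630.5 RPM), while miR-146b-5p spans 123 to 382 RPM and miR-146a-3p 0 to 5 reads.

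The mitochondrial libraries were compared with whole liver to see which miRNAs had a different relative level there, in a fit of all 8 libraries that also held diet. miR-146a-5p was higher in mitochondria by 3.54 on the scale of log2(RPM + 1) (SE 0.33), an 11.6-fold difference, in 6 of 6 mitochondrial libraries (limma-trend, adjusted p = 7.16e-07, Benjamini-Hochberg over 417 miRNAs). At that threshold, an adjusted p under 0.05, 10.6% (44) of the tested miRNAs were higher and 21.6% (90) lower in mitochondria, and the median log2 difference of all was -0.31. Within AL the log2 difference was 3.91 and within CR 3.17, each against a single pool. Without CR mitochondrial replicate 2 it was 3.57. The 2 pools have no replicate of their own and are taken to vary like the mitochondrial libraries. The members were not chosen by this contrast, but the mitochondrial levels of miR-146a-5p in it were known at their choice. The same levels enter the shares compared below.

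miR-146b-5p did not pass in the same fit. Its log2 difference was 0.82 (SE 0.35, limma adjusted p = 0.0815), with 5 of 6 mitochondrial libraries above both pools. This call turned on the scaling: with DESeq2 size factors, TMM factors or miR-122 left out of the library total the log2 difference was 1.13, 1.11 and 1.24 (limma adjusted p = 0.0140, 0.0165 and 0.00934), and all 6 libraries then lay above both pools. Under those scalings the log2 difference of miR-146a-5p was 3.85, 3.84 and 3.96. miR-146a-3p, which entered the fit with 1 RPM or more in only 3 libraries, all mitochondrial, did not pass (limma adjusted p = 0.387). As its entry rested on the mitochondrial libraries alone, the fit decides nothing about its level there.

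Over all tested miRNAs the 44 higher and 90 lower calls became 60 and 73 with DESeq2 size factors, at a median log2 difference of 0.01, and 62 and 59 with miR-122 left out, at a median of 0.05. In 14.9% of the tested names all 6 mitochondrial libraries lay above both pools, and of the 3 family members only miR-146a-5p did so. By size of its log2 difference miR-146a-5p was the 3rd highest of 417. The names above it, miR-6481 and let-7g-3p, averaged 104 and 23.9 RPM in mitochondria against 6597 RPM for miR-146a-5p. In the pools they averaged 0.565 and 0.72 RPM, where 1 read was worth 0.411 RPM under AL and 0.308 RPM under CR. Their log2 differences thus rest on values near the floor. Of the 40 tested miRNAs that averaged at least 1000 RPM in mitochondria, miR-146a-5p had the highest log2 difference, followed by miR-378a-3p with 2.14.

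**Figure D2:**
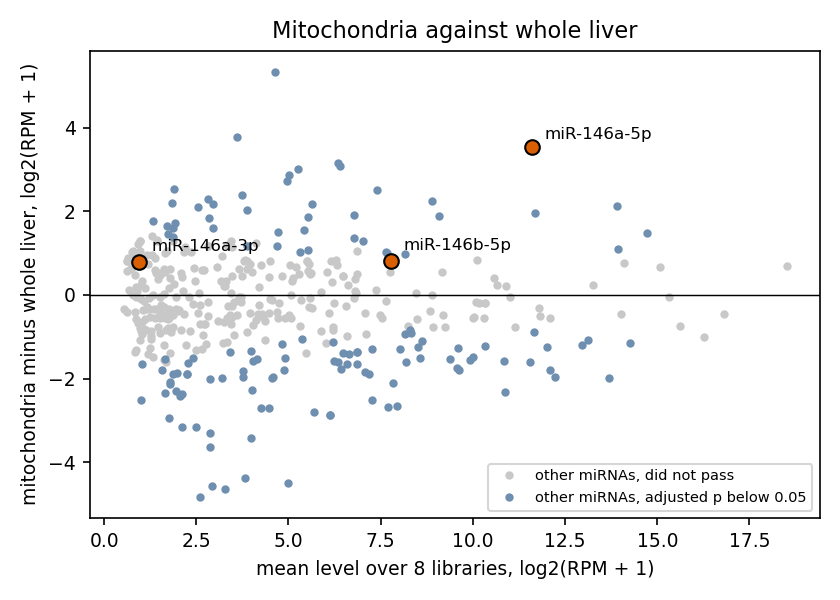
Log2 difference between mitochondria and whole liver against the mean level over 8 libraries, both as log2(RPM + 1), for the 417 tested miRNAs; blue points passed an adjusted p under 0.05, grey points did not, and the 3 family members are orange with a black edge. miR-146a-5p lies at 3.54, the highest of the 40 names with a mitochondrial mean of at least 1000 RPM, with miR-146b-5p at 0.82 and miR-146a-3p at 0.79, neither of which passed.

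Since the library's scaling cancels in a ratio of paralogues, the share of miR-146b-5p in the sum of miR-146a-5p and miR-146b-5p reads was also compared. In the pools it was 20.9% under AL (95% exact interval 19.1% to 22.8%) and 24.0% under CR (22.0% to 26.1%). In AL mitochondria it was 2.92%, 2.90% and 3.43%, and in CR mitochondria 4.66%, 7.38% and 5.42%. All 6 mitochondrial shares lay below both pools. There were thus 3.78 and 3.17 reads of miR-146a-5p for each read of miR-146b-5p in the AL and CR pools, and 12.5 to 33.5 in the mitochondrial libraries.

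The mean share was 4.45% in mitochondria and 22.5% in the pools, a difference of -18.0 percentage points (exact two-sided permutation p = 0.0357 over 28 assignments, the smallest they allow, or 0.0714 adjusted over the 2 shares tested). The difference without CR mitochondrial replicate 2, which had the highest mitochondrial share, was -18.6 points. The share of miR-146a-3p in the reads of both miR-146a arms was 0% to 0.0485% in mitochondria and 0% and 0.158% in the pools (exact two-sided permutation p = 0.25). It rests on 0 to 5 star-arm reads a library.

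**Figure D3:**
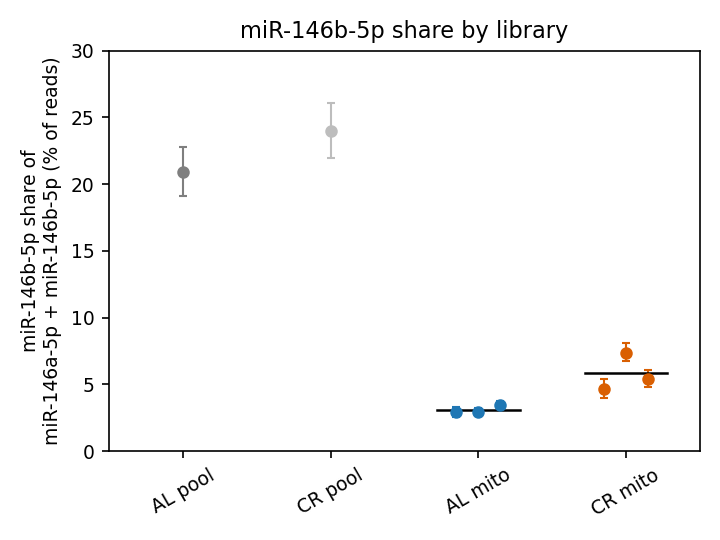
Share of miR-146b-5p in the reads of miR-146a-5p plus miR-146b-5p, in percent, for each library; points are libraries with 95% exact Clopper-Pearson intervals (counting error only) and black lines are means of 3. Both pools lie above 20%, the AL mitochondrial libraries between 2.90% and 3.43% and the CR mitochondrial libraries between 4.66% and 7.38%.

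Between the diets, miR-146a-5p averaged lower under CR in mitochondria, a comparison among the results that led to its choice and so given as a description. All 3 CR libraries lay below all 3 AL libraries. The log2 difference, CR minus AL, was -1.43 (SE 0.35), or 2.69-fold lower on the log2(RPM + 1) scale, and -1.41 without CR mitochondrial replicate 2. Of the 391 miRNAs in this fit 14.3% were lower under CR in all 3 libraries than in any AL library, and the median log2 difference of all was -0.17. The groups stayed apart under the other scalings, most narrowly with TMM factors, where the highest CR library reached 6176 and the lowest AL library 6412 RPM so scaled.

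miR-146b-5p had a log2 difference of -0.49 (SE 0.36) between the diets in mitochondria, with overlapping libraries. Its share beside miR-146a-5p was 3.08% ± 0.302 (SD, n = 3) under AL and 5.82% ± 1.41 (SD, n = 3) under CR, without overlap, and this too is a description. The star arm had 9 reads in AL and 3 in CR mitochondria.

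In the whole-liver pools miR-146a-5p was 1.62-fold lower under CR (ratio 0.618, 95% exact interval 0.574 to 0.667, from 1533 and 1264 reads). miR-146b-5p was 1.36-fold lower (ratio 0.737, 0.640 to 0.848). These are ratios of single libraries, with no replicate check. Of the 243 miRNAs that reached 10 RPM in either pool 63.8% were lower in the CR pool, with a median log2 ratio of -0.22, and 19.8% had a ratio as low as that of miR-146a-5p or lower. On the log2 scale the ratios were -0.69 for miR-146a-5p and -0.44 for miR-146b-5p, beside -1.43 and -0.49 in mitochondria. Whether the diet difference differs between fractions was not tested.

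Other miRNAs of the NF-kappaB and Toll-like receptor response were counted beside the family. The list held any arm of miR-155, miR-9, miR-132, miR-212, miR-147, miR-21a, miR-125b, miR-223, miR-181b and miR-10a, 21 names in all. Of 15 tested against whole liver, 0 rose and 4 fell by limma, beside 10.6% higher and 21.6% lower of all 417 tested miRNAs. Of the 15, 7 had an unadjusted p under 0.05, beside 173 of all 417. With so few names these counts lie near the shares of all miRNAs and say nothing particular to the list. edgeR's quasi-likelihood test and DESeq2 each called 0 higher and 2 lower. Of all 417 edgeR called 97 higher and 70 lower, and DESeq2 78 higher and 71 lower. The list's median log2 difference was -0.96, against -0.31 for all tested miRNAs.

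miR-125b-5p, a miRNA that targets tumour necrosis factor, was at 1064 and 672 RPM in the AL and CR pools and at 64.4 to 188 RPM in mitochondria (log2 difference -2.69, limma adjusted p = 1.02e-05). It was also called lower in all 19 alternatives. The other 3, miR-181b-5p (-1.57, limma adjusted p = 0.0114), miR-132-5p (-1.63, 0.0325) and miR-212-5p (-1.65, 0.0431), were called in 14 of 19, 7 of 18 and 3 of 18 alternatives that tested them. miR-212-5p rests on 5 reads in mitochondria and 26 in the pools. The abundant members miR-21a-5p and miR-10a-5p did not pass (log2 differences -1.01 and 0.24), nor did the passenger arm miR-125b-2-3p (0.34).

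Between the diets in mitochondria, where 0.512% of all tested miRNAs (1 higher and 1 lower) passed limma, 0 of 14 tested members of that list passed. None had an unadjusted p under 0.05 by limma, beside 52 of all 391 tested miRNAs. By edgeR and DESeq2 1 each did, beside 50 and 41 of all 391, and both also called 0 of the list. The log2 differences ran from -0.72 to 0.92 with a median of -0.48, and -0.13 with TMM factors. For miR-21a-5p the log2 difference was -0.48, for miR-10a-5p -0.47 and for miR-125b-5p -0.64.

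Marker miRNAs of the cell types that a liver sample can hold were summed beside miR-146a-5p. Leukocyte and Kupffer cell names (any arm of miR-142a, miR-223, miR-150, miR-155 and miR-342, 10 in all) summed to 473 RPM in the AL and 378 RPM in the CR pool, 351 to 513 RPM in AL mitochondria and 249 to 354 RPM in CR mitochondria. The sums in mitochondria and in the pools overlapped. In bulk RNA, fewer cells of a type and less RNA per cell cannot be told apart.

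Of 7 leukocyte names tested against whole liver 0 passed limma, beside 10.6% higher and 21.6% lower of all tested miRNAs. Of the 7, 2 had an unadjusted p under 0.05, beside 173 of all 417. DESeq2 called 0 of the 7, beside 78 higher and 71 lower of all 417. edgeR called 97 of all 417 higher and 70 lower, and of the 7 it called 1 higher, miR-142a-3p. Its reads equalled those of the antisense name miR-142b in 8 of 8 libraries, so the pair cannot be told apart. For the family members, no name shared more than 11 bases in a row with the reverse complement. Between the diets 0 of 7 passed limma, and edgeR and DESeq2 called 0. By limma 2 had an unadjusted p under 0.05, beside 52 of all 391 tested miRNAs, and they went opposite ways. miR-142a-5p was lower under CR and miR-150-5p higher (log2 difference 1.02, limma adjusted p = 0.360). miR-150-5p stood at 20.0, 73.5 and 25.2 RPM in CR mitochondrial replicates 1 to 3, against 18.5, 17.4 and 12.7 RPM under AL. The most abundant, the haematopoietic miR-142a-5p, was lower in all 3 CR than in all 3 AL mitochondrial libraries (103, 76.1 and 74.7 against 262, 112 and 137 RPM). So were 14.3% of all 391 tested miRNAs, and miR-142a-5p did not pass (log2 difference -0.92, limma adjusted p = 0.315). miR-155-3p and miR-150-3p were at 0 in 7 and 5 of the 8 libraries. The part of these cells in either difference of miR-146a-5p, against whole liver or between the diets, was not tested.

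**Figure D4:**
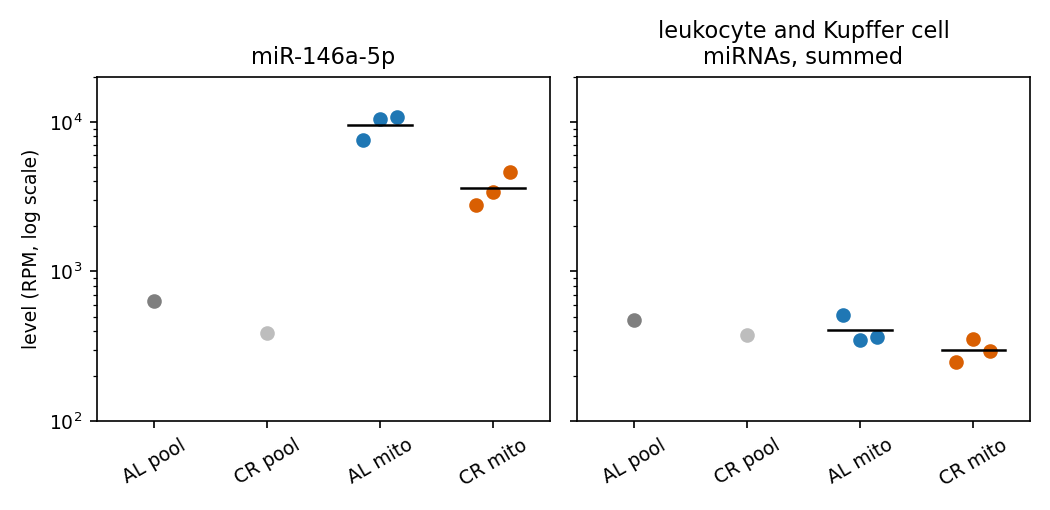
Level of miR-146a-5p and summed level of 10 leukocyte and Kupffer cell miRNA names in each library, in RPM on a shared log axis; points are libraries and black lines are means of 3. miR-146a-5p lies at 389.9 and 630.5 RPM in the pools and at 2763 RPM and more in mitochondria. The summed leukocyte names lie between 249 and 513 RPM in all 8 libraries, at 351 to 513 RPM in AL and 249 to 354 RPM in CR mitochondria.

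Stellate cell and fibroblast names (any arm of miR-199a, miR-199b, miR-214, miR-143 and miR-145a, 9 in all) summed to 14710 and 15881 RPM in the AL and CR pools. They summed to 35621 to 47454 RPM in AL and 25662 to 44663 RPM in CR mitochondria, led by miR-143-3p and miR-199a-3p, with none at 0. The highest CR sum was that of replicate 2, with miR-143-3p at 43460 RPM, and the CR median was 27163 RPM. miR-143-3p alone stood at 11712 and 13104 RPM in the AL and CR pools. It averaged 40052 RPM in AL and 31327 RPM in CR mitochondria, so it made up most of the sums. Against whole liver 1 of 9 rose (miR-143-3p, log2 difference 1.48, limma adjusted p = 0.00386) and 3 fell (miR-145a-5p, miR-145a-3p and miR-199a-5p), beside 10.6% and 21.6% of all tested miRNAs. Between the diets 1 of 9 fell, miR-199a-3p, beside 1 higher and 1 lower of all 391 tested miRNAs. Its log2 difference was -1.64 (limma adjusted p = 0.0141). The list's median log2 difference was -0.58, against -0.17 for all tested miRNAs, and 8 of the 9 were below 0. In mitochondria miR-199a-3p, miR-199a-5p, miR-145a-3p, miR-143-5p and miR-214-3p were lower in every CR than in any AL library. So were 14.3% of all 391. Of the 9, 0 fell without AL mitochondrial replicate 2 or 3 or any of the CR mitochondrial replicates. In those fits 0 of all tested miRNAs were called lower and at most 1 higher. There 2 to 4 of the 9 had an unadjusted p under 0.05 by limma, beside 32 to 55 of all 360 to 380 tested. With miR-122 left out of the library total 0 of the 9 fell and 2 had such a p. Of all 472 names in that fit 1 was called higher and 0 lower, and 46 had such a p. With no filter, a filter of 10 RPM or the DESeq2 test 2 of the 9 fell, beside 6 of 734, 4 of 232 and 4 of 391 names in all. Of the 9, 1 fell with DESeq2 size factors, TMM factors, edgeR, replicate number as a block or without AL mitochondrial replicate 1. In those fits 1 to 3 of all tested miRNAs were called lower. The part of these cells in the levels of miR-146a-5p was not tested. Hepatocyte names, led by miR-122-5p and miR-148a-3p, took 476035 and 565552 RPM of the pools, against 542376 to 720826 RPM of the mitochondrial libraries. Endothelial names (miR-126a-3p and miR-126a-5p) took 19607 and 14978 RPM of the pools, against 6694 to 18066 RPM of the mitochondrial libraries. Erythroid names, led by miR-451a and miR-486a-5p, summed to 54.7 to 98.3 RPM over all libraries. Bile duct names, led by miR-200a-3p and miR-200b-3p, took 769 and 791 RPM of the pools, against 242 to 510.2 RPM of the mitochondrial libraries. Among mitochondrial libraries, CR replicate 2 had the lowest hepatocyte sum and the highest endothelial and bile duct sums.

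The miRNAs whose pattern over the 6 mitochondrial libraries was most like that of miR-146a-5p were miR-674-5p (Pearson's r of log2 levels 0.94), miR-1843b-5p (0.92), miR-320-3p (0.92), miR-1843a-5p (0.92) and miR-532-5p (0.90), out of 225 names with a mean of at least 10 RPM there. For miR-146b-5p they were miR-378b (0.94), miR-1843b-5p (0.89), miR-664-5p (0.87), miR-574-5p (0.84) and miR-10a-5p (0.84). The paralogues had r = 0.75 with each other. These values describe 6 libraries, which share depth and composition across all names. miR-674-5p averaged 24.1 and 18.0 RPM in AL and CR mitochondria against 16.0 and 9.25 RPM in the pools. miR-532-5p, the most abundant of the 5, averaged 560.2 and 334 RPM in AL and CR mitochondria against 599.6 and 515 RPM in the pools.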

How the data were processed

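Per the labels, Trizol RNA of whole liver or of mitoplasts was made into Illumina small RNA libraries. Reads were mapped with Bowtie to mouse mm9, per the submitters' processing notes. The step that assigns names and its treatment of strand are not given in the sources used here. The deposited values are RPM (column named tpm), which sum to 1000000 per library. Of the RPM values 100% were whole multiples of the smallest within 0.01 read, so reads were recovered by division. 1 read was worth 0.308 to 0.934 RPM.

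The main test was limma-trend (limma 3.58.1, R 4.3.3) on log2(RPM + 1) for names that reached 1 RPM in 3 or more libraries, at an adjusted p of 0.05. This was the plan for files that hold RPM, and edgeR was planned only for files of counts. The model was diet plus fraction over 8 libraries, and diet over the 6 mitochondrial ones. All 3 family members passed this filter in both. edgeR 4.0.16 and DESeq2 1.42.0 on recovered reads were alternatives. edgeR called 97 higher and 70 lower in mitochondria against whole liver, and 5 higher and 2 lower between the diets. Shares were compared by exact permutation and intervals are Clopper-Pearson at 95% (Python 3.11.15, scipy 1.17.1, matplotlib 3.10.9). Replicates of a group differed far beyond sampling noise. The limma code was tested on simulated data.

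The members and lists were chosen with earlier results of these data known. Named miRNAs were the members, list members that passed or the 4 most abundant of the NF-kappaB list, the 2 most abundant of each cell type list, the 5 most like each paralogue, and the neighbours by level. Names beside these (miR-6481, let-7g-3p, miR-378a-3p, miR-142b, miR-145a-5p, miR-145a-3p, miR-199a-5p, miR-143-5p, miR-214-3p, miR-150-5p, miR-155-3p and miR-150-3p) were chosen after their values were seen. Sequences are from the deposited tables and RefSeq (GRCm38.p6), where 3 of 3 members matched.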

Additional observations from a re-analysis of the deposited data

How the results depend on the processing

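The rise of miR-146a-5p in mitochondria over whole liver passed in all 19 alternatives run, with log2 differences of 3.17 to 4.01 (limma, edgeR or DESeq2 adjusted p up to 0.000532), and 3.17 to 3.91 with 1 library left out. That of miR-146b-5p stayed above 0 and passed in 7 of 19: 1.13 with DESeq2 size factors, 1.11 with TMM factors, 1.24 with miR-122 left out, 1.31 in edgeR, 1.19 in DESeq2, and in 2 of the fits without 1 library, which ranged from 0.74 to 0.97. miR-146a-3p passed in none of 15 and had no value under a filter of 10 RPM or where the loss of a library left it untested. Between the diets in mitochondria miR-146a-5p stayed at -1.63 to -1.09 over 16 alternatives, the smallest with TMM factors (-1.09), and miR-146b-5p at -0.69 to -0.15. In the pools the log2 ratio of miR-146a-5p was -0.53 with DESeq2 size factors and -0.39 with TMM factors, and that of miR-146b-5p -0.13 with TMM factors. The share of miR-146b-5p differed by -18.6 to -17.7 points without 1 mitochondrial library. Calls over all names against whole liver fell from 44 higher and 90 lower to 21 and 44 without the AL pool and 23 and 35 without the CR pool. With replicate number as a block the diet differences were unchanged at -1.43, -0.86 and -0.49 for miR-146a-5p, miR-146a-3p and miR-146b-5p, and 3 names passed in place of 2. Same-numbered libraries had deviations correlated at 0.36, 0.08 and 0.11, and AL replicate 2 correlated better with CR replicate 3 (0.22), so the numbers are not taken to pair the libraries. The star arm is limited by depth, at 0 to 5 reads a library.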
